A study of Rattus norvegicus with 12 samples.

Results

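Actin cytoskeleton and contractile genes were read on arrays of the left hemisphere from 12 rats, all male, Sprague-Dawley and 8 weeks old. The 48 listed genes encode the actins and the proteins that nucleate, cap, sever, bundle and contract actin filaments or tie them to membranes and adhesion sites. Of the 48 genes, 43 had at least 1 probe set that the array annotation assigns to them alone, out of 14217 such genes on the array, and these 43 genes had 80 probe sets. The other 5 (Actb, Myl6, Actr3, Cfl1 and Tmsb10) had only probe sets shared with other genes and were not tested. The MCAO group (7 rats) had undergone middle cerebral artery occlusion followed by reperfusion, a surgical stroke model, and the Sham group (5 rats) a sham operation. Brains were taken 24 h after reperfusion, and the labels state neither the occluded side nor how long the artery was closed. Each rat gave 1 oligonucleotide array of messenger RNA, the values are log2 signals whose array medians lay between 7.23 and 7.27, and the number of arrays limits the precision. The hemisphere may hold both injured and uninjured tissue. In these bulk samples more or fewer cells of a type and more or less RNA per cell cannot be told apart.

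Actin exists as monomers and as filaments. Profilin, thymosin and cofilin family proteins set the exchange between the forms, the Arp2/3 complex starts branches, tropomyosins coat filaments, and non-muscle myosin pulls on them. Moesin, ezrin and radixin fasten filaments to the plasma membrane, and zyxin, vinculin, talin and VASP work where filaments meet adhesion sites. In brain, actin shapes dendritic spines of neurons, processes of astrocytes and the movement of microglia and leukocytes, and smooth muscle of vessel walls uses a specialised set of actin and myosin genes.

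Most of the actin genes were higher after MCAO, and few were lower. Of the 43 genes on the array 42 passed the filter on dim signals (above 6.61 in at least 5 arrays), and none of these passed through the MCAO rats alone; each had at least 1 Sham rat above 6.61. Cnn1, the calponin gene of smooth muscle, did not pass. With limma and Benjamini-Hochberg adjustment over 12156 genes, 31 of the 42 were higher and 2 were lower at an adjusted p under 0.05, where 22.2% of all genes were called higher and 22.1% lower. Many genes carried nearly the same deposited value on all 12 arrays (47.85% of tested genes had an SD under 0.01), and 4 of the 42 did so, which left 38 varying genes. Of the 38 varying genes 30 were higher (35.2% of all varying genes were), 2 lower (34.2%) and 6 did not pass. Because the SD was taken across all 12 arrays, a gene may vary through the group difference alone. In 24 of the 38 (63.2%) the gene was called and every MCAO rat lay above every Sham rat, as in 17.8% of all varying genes, and 11 of the 38 (28.9%) were called and at least 2-fold higher, as were 3.44% of all varying genes. Of 65 varying probe sets tested 51 were higher (37.0% of all varying probe sets), 2 lower (30.7%) and 40 called with every MCAO rat above every Sham rat (18.2%). The median log2 change of the 38 genes was 0.52, and that of all varying genes was 0.025. The listed genes were chosen with earlier results of these data known, so these shares describe the list and do not test it. The plot of log2 changes by role shows log2 changes above 1 in 8 of the 10 role groups.

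**Figure D1:**
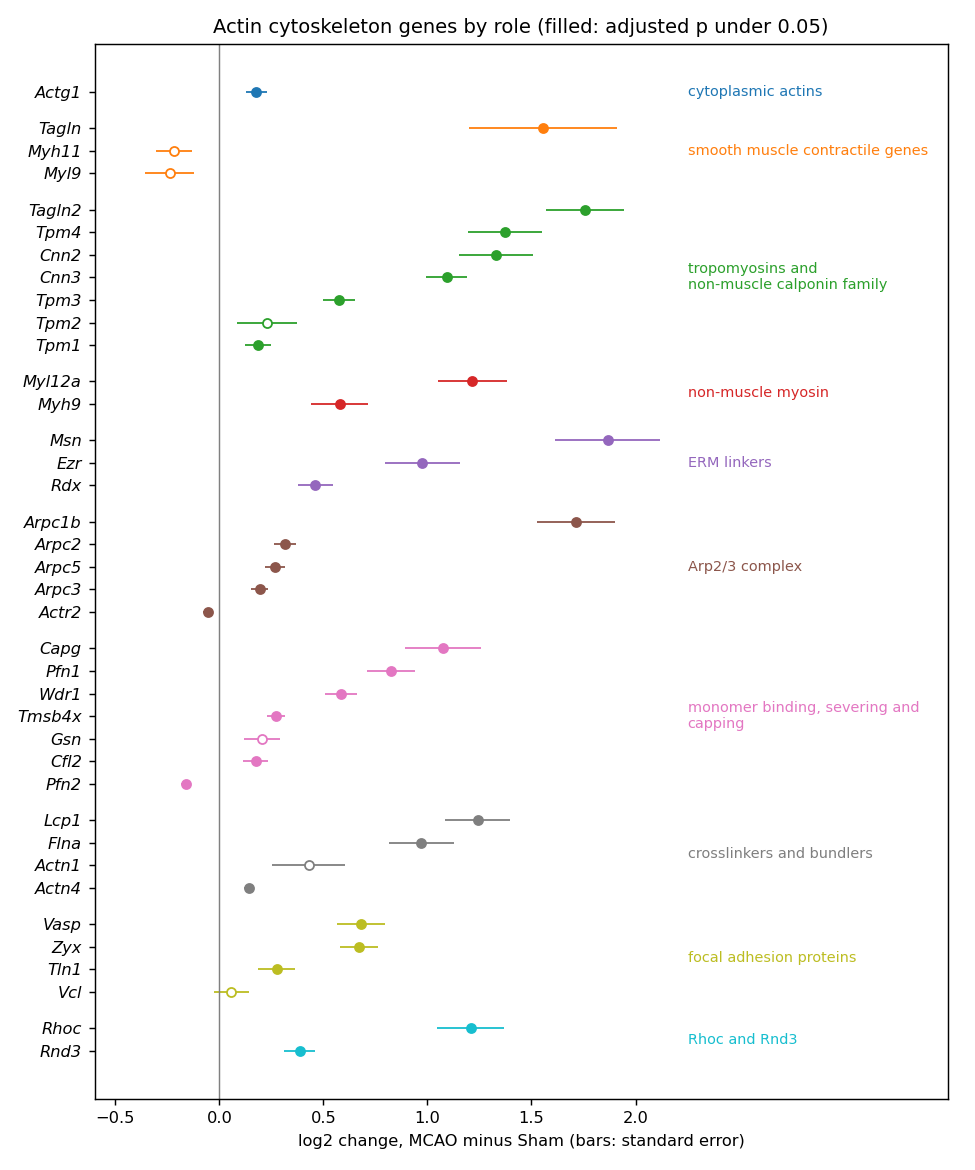
Log2 change (MCAO minus Sham, horizontal axis) of the 38 varying actin genes, grouped by role and coloured by group. Points are changes from the limma fit of 7 MCAO and 5 Sham rats, bars are standard errors, filled points passed an adjusted p of 0.05 and open points did not. Msn, Tagln2 and Arpc1b lie farthest right, and Myh11, Myl9, Pfn2 and Actr2 lie left of 0.

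The 4 genes with near-constant values were Acta2 and Actg2, the smooth muscle actins, Arpc1a, an Arp2/3 subunit, and Cap1, which recycles actin monomers. Acta2, the usual marker of contractile vessel cells, was 7.75 in all 7 MCAO and all 5 Sham rats, and Arpc1a was 10.86 in all 12. Such values were found at low and high signal alike. Acta2 was formally called (limma adjusted p = 0.0485) on a log2 change of 0.00039, and no size or direction is read from it or from the other 3.

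Promoter sequences show where a known control element of actin genes lies among these members. Serum response factor, a transcription factor that responds to the pool of free actin, binds the CArG box. RefSeq promoters (GRCr8, 250 bases before to 50 after the annotated start) were found for 39 of the 48 genes, with 43 promoters. Exact CArG boxes, which span 10 bases and were searched on both strands, occurred in 3 of the 43 promoters (6.98%), against 1.64% of all 33469 promoters of that length. The 3 genes, Actg1, Cnn2 and Rnd3, were all called higher in MCAO, as were 30 of the 38 varying actin genes (78.9%). Their promoters are shown in lower case with the box in capitals, each on the minus strand. The box starts 90 bases before the start of Actg1 (chr10:106120902-106121201), 71 before that of Cnn2 (chr7:10370263-10370562) and 146 before that of Rnd3 (chr3:55998445-55998744). A match describes these letters only, and its absence elsewhere says nothing of the factor.
Actg1: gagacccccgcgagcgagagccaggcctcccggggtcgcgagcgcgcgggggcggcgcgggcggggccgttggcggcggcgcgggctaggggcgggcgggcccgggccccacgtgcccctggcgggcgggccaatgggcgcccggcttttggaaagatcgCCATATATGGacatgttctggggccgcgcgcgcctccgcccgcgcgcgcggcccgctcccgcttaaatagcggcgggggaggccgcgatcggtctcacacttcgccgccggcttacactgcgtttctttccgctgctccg
Cnn2: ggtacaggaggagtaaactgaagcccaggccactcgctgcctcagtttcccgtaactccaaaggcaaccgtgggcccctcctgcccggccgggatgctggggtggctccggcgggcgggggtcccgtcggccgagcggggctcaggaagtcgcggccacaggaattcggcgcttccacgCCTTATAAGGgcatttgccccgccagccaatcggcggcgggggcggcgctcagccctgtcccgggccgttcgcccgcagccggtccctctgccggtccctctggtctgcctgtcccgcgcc
Rnd3: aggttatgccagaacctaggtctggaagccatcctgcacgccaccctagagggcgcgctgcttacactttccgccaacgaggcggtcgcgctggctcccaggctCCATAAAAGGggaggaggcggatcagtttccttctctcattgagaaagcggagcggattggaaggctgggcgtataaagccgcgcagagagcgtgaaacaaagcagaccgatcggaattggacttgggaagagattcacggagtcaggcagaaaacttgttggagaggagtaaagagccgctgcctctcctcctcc

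The cytoplasmic actins form most of the actin of brain cells. Actg1 (Entrez Gene 287876), the gamma-actin gene, had a lowest, median and highest log2 signal of 12.93, 13.16 and 13.20 in MCAO, against 12.96, 12.90, 12.97, 13.06 and 12.88 in Sham. MCAO 4 lay within the Sham range and the other 6 MCAO rats above it. The log2 change was 0.18 ± 0.05 (SE), a 1.13-fold difference (limma adjusted p = 0.0148). A dimmer probe set of Actg1 changed by the same 0.18 and did not pass when all probe sets were fitted (limma adjusted p = 0.251). The gene's call was lost with the mean of its probe sets (adjusted p = 0.0785), with the probe set of largest variance (0.249) and with the replicate number as a block (0.169). Block fits here and below left out MCAO 6 and MCAO 7, which have no Sham rat of the same number. Gamma-actin and beta-actin are nearly identical, so these probe sets may pick up both transcripts.

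Smooth muscle contractile genes did not move together. Tagln (Entrez Gene 25123), which encodes the filament-binding protein transgelin of smooth muscle and activated fibroblast-like cells, ranged widely in MCAO, at a lowest, median and highest log2 signal of 7.63, 9.48 and 9.91. Its 5 Sham values were 7.30, 7.57, 7.56, 7.60 and 7.65. MCAO 2 lay inside the Sham range, and the other 6 MCAO rats lay at 8.55 or above. The log2 change was 1.56 ± 0.36 (SE), or 2.94-fold (limma adjusted p = 0.00644), and the MCAO SD of 0.79 (n = 7) was the widest of the 38 genes, beside a Sham SD of 0.13 (n = 5).

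Myh11, the myosin heavy chain of smooth muscle, had 7.28, 7.51 and 7.81 as lowest, median and highest log2 signal in MCAO, against 7.67, 7.75, 7.73, 7.74 and 7.87 in Sham. Its groups overlapped, and the change of -0.22 ± 0.09 (SE) did not pass (limma adjusted p = 0.0676). It did pass under 5 of 26 alternatives, among them without MCAO 4 (adjusted p = 0.0169) and with array weights (0.0357). Myl9, the matching regulatory light chain, had 7.33, 7.43 and 7.91 in MCAO, against 7.54, 7.70, 7.72, 7.85 and 7.98 in Sham. Its change of -0.24 ± 0.12 (SE) did not pass either (adjusted p = 0.125), but passed under 3 of 26 alternatives, among them without MCAO 4 (0.0268). Of the varying genes in this group 1 was thus higher and 2 did not pass, with Acta2 and Actg2 near-constant and Cnn1 too dim.

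Other markers of vessel wall cells also showed no single direction. Of 6 varying smooth muscle and pericyte markers 3 were higher, 1 was lower and 2 did not pass. Of all varying genes 35.2% were called higher and 34.2% lower. Pdgfrb, Cspg4, Kcnj8, Notch3, Higd1b and Ndufa4l2 were near-constant. Des, which encodes the muscle filament desmin, changed by 0.78 ± 0.09 (SE; limma adjusted p = 0.000507) and Vtn, the vitronectin gene of pericytes, by -0.65 ± 0.15 (adjusted p = 0.00658). The mean log2 difference of this list from its Sham mean ran from -0.05 to 0.26 in MCAO and from -0.28 to 0.14 in Sham. Among 7 fibroblast markers 1 was higher, the matrix gene Dcn (0.61 ± 0.17, SE), while the collagen gene Col3a1 (0.61 ± 0.23) did not pass. Among MCAO rats, fibroblast list means were highest in MCAO 6 (0.52) and MCAO 3 (0.43), which had the highest Tagln. They were lowest in MCAO 2 (-0.16), which had the lowest Tagln. The Sham rats ran from -0.15 to 0.21. MCAO 5 (0.28) lay above that range, and MCAO 4 (0.12), MCAO 1 (-0.01) and MCAO 7 (-0.06) lay within it. Tagln put the MCAO rats in the same order as the fibroblast list mean. In MCAO 4, MCAO 1 and MCAO 7 Tagln was above that of every Sham rat. The part of these cell types in the Tagln result was not tested. Of 9 skeletal muscle markers 5 were tested, 4 of them were near-constant, and Myh1 did not pass (-0.01 ± 0.10, SE).

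**Figure D2:**
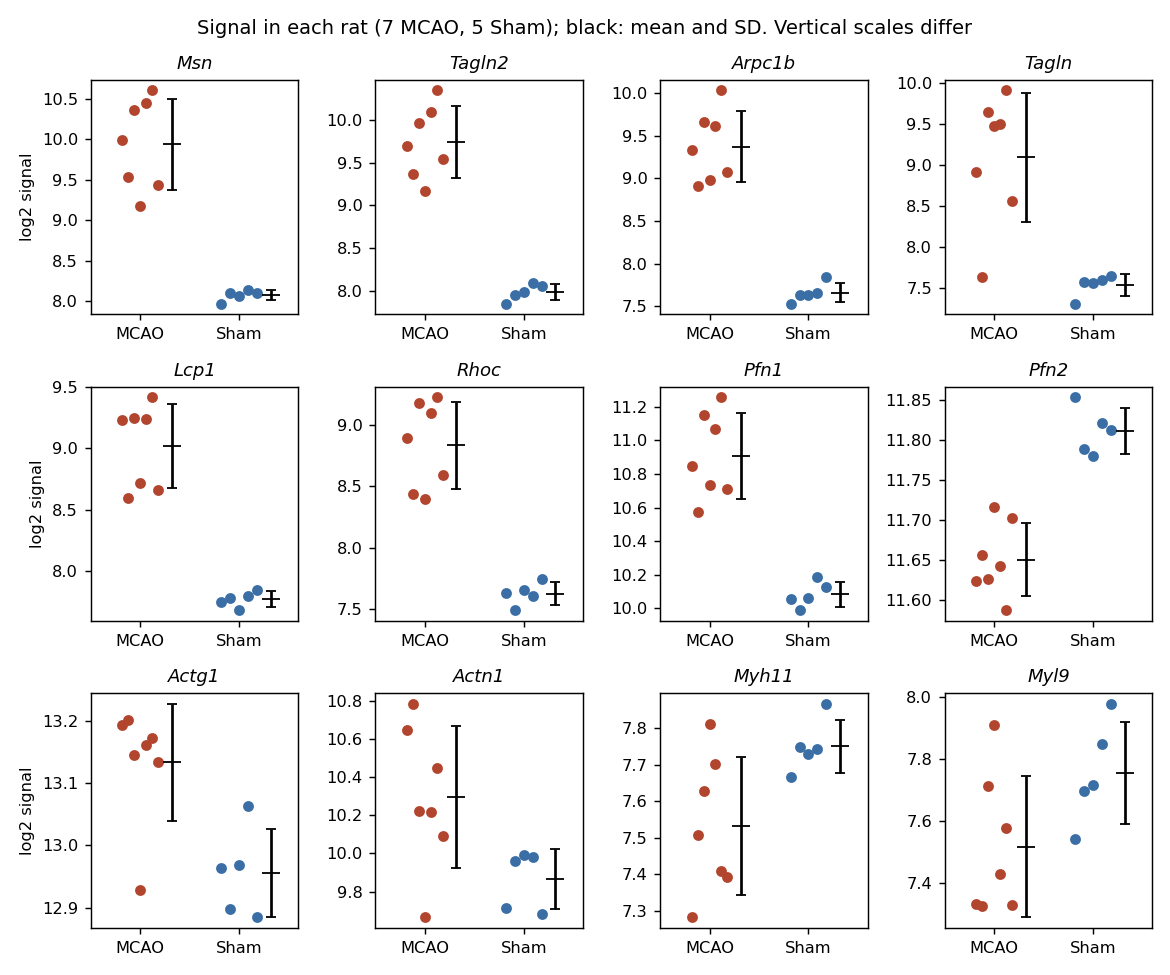
Log2 signal of 12 actin genes in each of 7 MCAO (left) and 5 Sham rats (right). Each point is 1 rat, black marks are the mean and SD, and vertical scales differ between panels. Msn, Tagln2, Arpc1b, Lcp1, Rhoc and Pfn1 separate the groups upward and Pfn2 downward. In Tagln and Actg1 1 MCAO rat each lies in the Sham range, and in Actn1 1 MCAO rat lies just below it.

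Tropomyosins and the calponin family members found outside muscle were mostly higher: 6 of 7 passed, all upward, with a median log2 change of 1.09. Tagln2 (Entrez Gene 304983), transgelin-2 of blood and epithelial cells, had a lowest, median and highest log2 signal of 9.17, 9.70 and 10.35 in MCAO, against 7.85, 7.95, 7.98, 8.09 and 8.06 in Sham. Its groups lay over 1 log2 unit apart at their nearest, and the change was 1.76 ± 0.19 (SE), or 3.38-fold (limma adjusted p = 0.000395). Cnn2, calponin-2 of non-muscle cells, had 8.76, 9.15 and 9.81 in MCAO, against 7.77, 7.79, 7.90, 7.85 and 7.90 in Sham. The 2.52-fold difference (limma adjusted p = 0.000989) separated all rats. Cnn3, an acidic calponin found in neurons and glia, was 2.13-fold higher (1.09 ± 0.10, SE), also with no overlap.

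Tpm4 (Entrez Gene 24852), a tropomyosin of non-muscle cells, had a lowest, median and highest log2 signal of 9.40, 10.05 and 10.46 in MCAO, against 8.48, 8.56, 8.59, 8.62 and 8.70 in Sham. It was 2.59-fold higher (log2 change 1.37 ± 0.18, SE; limma adjusted p = 0.000948), and its second probe set gave 1.45. Tpm3, another tropomyosin gene, was 1.49-fold higher (0.57 ± 0.08, adjusted p = 0.000976). Tpm2, a tropomyosin of muscle, changed by 0.23 ± 0.14 and did not pass (adjusted p = 0.222), with Sham 5 at 7.47 inside the MCAO range of 7.11 to 7.74.

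Tropomyosin genes give rise to many splice forms, and their probe sets differed in size. The plot of tropomyosin probe sets shows 9 varying ones for Tpm3, 8 of them called higher in a fit of all 17244 probe sets, with log2 changes between 0.42 and 1.24 among the called ones. The remaining Tpm3 probe set changed by 0.99 ± 0.39 (SE) and did not pass (limma adjusted p = 0.0659): Sham 2 and Sham 3 had 6.71 and 6.65, and the other 3 Sham rats had 8.38, 8.77 and 8.67, inside or near the MCAO range of 8.58 to 8.95. For Tpm1 the brightest probe set, which stands for the gene, changed by only 0.19 ± 0.06 (limma adjusted p = 0.0318). This call was lost without any 1 of MCAO 1, MCAO 3, MCAO 6, Sham 2, Sham 3, Sham 4 or Sham 5 (adjusted p = 0.0532 to 0.0648), with the replicate number as a block (0.0732) and with a rank-sum test (exact, adjusted p = 0.0615).

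Of the other 5 varying Tpm1 probe sets 4 were higher, by 0.46 to 0.83, and 1 (-0.20 ± 0.27, SE) did not pass. The Tpm1 probe set with the largest change had 10.32 in MCAO 1 and 9.98 in MCAO 2, its 2 highest values, 8.70 in MCAO 4, and between 9.34 and 9.56 in the other 4 MCAO rats, against 8.67 to 8.76 in Sham. MCAO 4 alone lay in the Sham range. Probes of 1 tropomyosin can also bind transcripts of another, and how much each splice form adds was not tested.

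**Figure D3:**
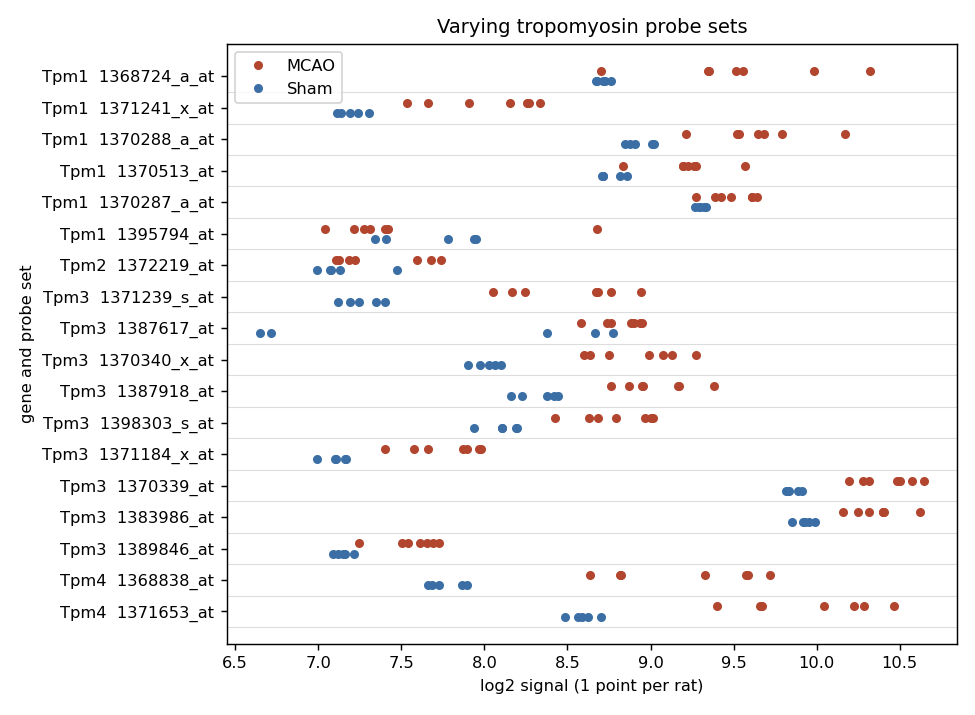
Log2 signal (horizontal axis) of each varying probe set of Tpm1, Tpm2, Tpm3 and Tpm4, with 1 point per rat (MCAO drawn above Sham in each row). MCAO rats lie to the right of Sham rats in all rows of Tpm4 and in 8 of the 9 of Tpm3, while in the lowest Tpm1 row 6 of the 7 MCAO rats lie at or below 7.42 and MCAO 2 at 8.68.

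Both measured non-muscle myosin genes were higher. Myl12a (Entrez Gene 501203), a regulatory light chain of non-muscle myosin, had a lowest, median and highest log2 signal of 10.05, 10.51 and 10.94 in MCAO, against 9.23, 9.29, 9.18, 9.26 and 9.46 in Sham. It was 2.32-fold higher (1.22 ± 0.17, SE; limma adjusted p = 0.00105). Myh9, the heavy chain of non-muscle myosin IIA, had 8.52, 9.04 and 9.23 in MCAO, against 8.23, 8.45, 8.46, 8.42 and 8.32 in Sham. Its 1.49-fold difference passed (adjusted p = 0.00721), although MCAO 4 lay only just above the highest Sham rat. The array annotation gives Myh9 an Entrez Gene number that the RefSeq table does not hold, so its name rests on the array annotation. Myh10, the heavy chain of the related myosin IIB, which is not among the 48 genes and was picked after its value was seen, fell by 0.42 (adjusted p = 0.00541).

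All 3 genes that link filaments to the plasma membrane were higher, by unequal amounts. Msn (Entrez Gene 81521), the moesin gene, which is strong in leukocytes, microglia and endothelium, had a lowest, median and highest log2 signal of 9.17, 9.999 and 10.61 in MCAO, against 7.97, 8.10, 8.07, 8.14 and 8.10 in Sham. The groups were over 1 log2 unit apart at their nearest, and the 3.64-fold difference (1.87 ± 0.25, SE; limma adjusted p = 0.00105) was the largest of the 38 genes. A dimmer Msn probe set changed by 1.11 and passed the filter through the MCAO rats alone.

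Ezr, the ezrin gene, found in astrocyte processes, had 9.38, 10.23 and 10.52 in MCAO, against 9.14, 9.07, 9.19, 8.95 and 9.21 in Sham. It was 1.97-fold higher (limma adjusted p = 0.0028), with MCAO 4, at 9.38, nearest to the highest Sham rat, at 9.21. Rdx, the radixin gene, had 9.65, 9.93 and 10.19 in MCAO, against 9.36, 9.39, 9.47, 9.51 and 9.48 in Sham. All 5 Rdx probe sets were called higher, with log2 changes from 0.28 to 0.65.

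Within the Arp2/3 complex, which starts filament branches, 1 subunit changed far more than the rest. Arpc1b (Entrez Gene 54227), the subunit form that prevails in blood cells, had a lowest, median and highest log2 signal of 8.92, 9.33 and 10.03 in MCAO, against 7.53, 7.64, 7.63, 7.65 and 7.84 in Sham. It was 3.28-fold higher with no overlap (1.71 ± 0.19, SE; limma adjusted p = 0.000434). Its paralog Arpc1a had near-constant values, so the 2 forms cannot be compared here.

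The shared subunits changed little. Arpc2 had 11.39, 11.58 and 11.68 as lowest, median and highest log2 signal in MCAO, against 11.18, 11.23, 11.25, 11.17 and 11.23 in Sham, and was 1.24-fold higher with no overlap (limma adjusted p = 0.00208). Arpc5 had 10.65, 10.85 and 10.96 in MCAO, against 10.61, 10.54, 10.53, 10.57 and 10.64 in Sham, and was 1.2-fold higher (adjusted p = 0.00266). Arpc3 changed by 0.19 ± 0.04 (SE; adjusted p = 0.0046), with MCAO 4 inside the Sham range. Its call was lost with the replicate number as a block (0.0599). Actr2, which encodes the Arp2 core of the complex, went the other way, with 11.82, 11.88 and 11.92 in MCAO, against 11.95, 11.95, 11.92, 11.92 and 11.89 in Sham. That change of -0.06 ± 0.02 (SE; adjusted p = 0.0367) came with overlapping groups. It did not pass without any 1 of MCAO 3, MCAO 5, MCAO 6, MCAO 7, Sham 1, Sham 2, Sham 3 or Sham 4 (adjusted p = 0.0525 to 0.0878). The call was also lost with the mean of probe sets (adjusted p = 0.944) and without near-constant probe sets (0.112). With the probe set of largest variance the sign turned (log2 change 0.052, adjusted p = 0.349).

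Proteins that bind monomers or cap and sever filaments were higher in 5 of 7 varying genes and lower in 1. Capg (Entrez Gene 297339), a capping protein abundant in macrophages, had a lowest, median and highest log2 signal of 7.51, 8.19 and 8.61 in MCAO, against 6.94, 6.98, 7.10, 6.94 and 6.97 in Sham. It was 2.11-fold higher with no overlap (1.08 ± 0.18, SE; limma adjusted p = 0.00212). Wdr1, a helper of cofilin in filament disassembly, had 10.21, 10.56 and 10.72 in MCAO, against 9.90, 9.90, 9.97, 10.04 and 9.90 in Sham, and was 1.5-fold higher (adjusted p = 0.000977). Tmsb4x, the thymosin beta-4 gene, whose product stores monomers, was 1.21-fold higher in this already bright transcript (0.27 ± 0.04; adjusted p = 0.00163).

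The 2 profilin genes moved in opposite directions. Pfn1 (Entrez Gene 64303), the profilin of most tissues, had a lowest, median and highest log2 signal of 10.57, 10.85 and 11.26 in MCAO, against 10.05, 9.99, 10.06, 10.18 and 10.12 in Sham. It was 1.77-fold higher (0.83 ± 0.12, SE; limma adjusted p = 0.00118). Pfn2 (Entrez Gene 81531), the form that prevails in neurons, had 11.59, 11.64 and 11.72 in MCAO, against 11.85, 11.79, 11.78, 11.82 and 11.81 in Sham. Every MCAO rat lay below every Sham rat for Pfn2, with a change of -0.16 ± 0.02 (SE; adjusted p = 0.00118). A second Pfn2 probe set changed by -0.13 and did not pass, and with it in place of the first the call was lost (adjusted p = 0.199).

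Cfl2, the cofilin gene of muscle, changed by 0.17 ± 0.06 (SE; limma adjusted p = 0.0352), with MCAO 2 inside the Sham range. This call was lost without any 1 of MCAO 3, MCAO 5, MCAO 6, MCAO 7, Sham 1, Sham 2, Sham 3 or Sham 4 (adjusted p = 0.0549 to 0.0862), with the replicate number as a block (0.0970), with a rank-sum test (exact, adjusted p = 0.0615) and with equal array medians (0.0654). Gsn, which encodes the severing protein gelsolin and is strong in oligodendrocytes, changed by 0.20 ± 0.09 and did not pass (adjusted p = 0.0843). Under 2 of 26 alternatives Gsn passed, without MCAO 1 (adjusted p = 0.0204) and without near-constant probe sets (0.0450).

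Crosslinking proteins were higher in 3 of 4 genes. Lcp1 (Entrez Gene 306071), the bundling protein L-plastin of leukocytes and microglia, had a lowest, median and highest log2 signal of 8.59, 9.23 and 9.41 in MCAO, against 7.75, 7.79, 7.68, 7.80 and 7.85 in Sham. It was 2.36-fold higher (1.24 ± 0.15, SE; limma adjusted p = 0.00083). Flna, the gel-forming crosslinker filamin A, had 8.12, 8.25 and 8.97 in MCAO, against 7.22, 7.51, 7.48, 7.60 and 7.46 in Sham, and was 1.96-fold higher (adjusted p = 0.00174). Neither gene overlapped between groups. Actn4, a non-muscle alpha-actinin, was 1.10-fold higher (adjusted p = 0.00181), a small change against a Sham SD of 0.012 (n = 5).

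Actn1, the other non-muscle alpha-actinin, had 9.67, 10.22 and 10.78 as lowest, median and highest log2 signal in MCAO, against 9.71, 9.96, 9.99, 9.98 and 9.68 in Sham. MCAO 4 was lower than every Sham rat and the other 6 MCAO rats higher. The change of 0.43 ± 0.18 (SE) did not pass (limma adjusted p = 0.0704). It passed under 5 of 26 alternatives, among them without MCAO 4 (0.53, adjusted p = 0.00978) and with the mean of probe sets (adjusted p = 0.0396). A dimmer Actn1 probe set was called in the fit of all probe sets (0.46 ± 0.14, adjusted p = 0.0243).

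Among the proteins of adhesion sites 3 of 4 were higher. Vasp, which speeds filament growth at the leading edge, had a lowest, median and highest log2 signal of 8.00, 8.30 and 8.58 in MCAO, against 7.57, 7.84, 7.72, 7.57 and 7.54 in Sham, and was 1.6-fold higher (limma adjusted p = 0.00208). Zyx, the zyxin gene, had 7.96, 8.32 and 8.59 in MCAO, against 7.47, 7.60, 7.60, 7.76 and 7.72 in Sham, and was 1.59-fold higher (adjusted p = 0.00105). Both separated the groups. Tln1, which encodes talin, the activator of integrins, had 7.95, 8.12 and 8.37 in MCAO, against 7.71, 7.96, 7.96, 7.92 and 7.84 in Sham. MCAO 7 lay within the Sham range. Its call (0.28 ± 0.09, SE; adjusted p = 0.0288) was lost without MCAO 3, MCAO 5, MCAO 6, Sham 1 or Sham 5 (adjusted p = 0.0511 to 0.0701) and with the replicate number as a block (0.0536). Vcl, the vinculin gene, changed by 0.06 ± 0.08 and did not pass (adjusted p = 0.627).

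Rhoc and Rnd3, the last 2 of the listed genes, were both higher. Rhoc (Entrez Gene 295342), linked to cell motility, had a lowest, median and highest log2 signal of 8.39, 8.90 and 9.22 in MCAO, against 7.63, 7.49, 7.65, 7.61 and 7.75 in Sham. It was 2.31-fold higher with no overlap (1.21 ± 0.16, SE; limma adjusted p = 0.00101). Rnd3, linked to the loss of stress fibres, had 8.47, 8.70 and 8.89 in MCAO, against 8.27, 8.33, 8.30, 8.22 and 8.31 in Sham. It was 1.31-fold higher (adjusted p = 0.00335), and its other 2 probe sets were called higher too, by 0.57 and 0.46.

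The MCAO rats differed among themselves in a regular way. All 38 varying genes had a larger SD in MCAO than in Sham, as 89.4% of all varying genes did. Of the 30 varying genes called higher, MCAO 6 had the highest MCAO value in 25, while MCAO 4 had the lowest in 17 and MCAO 2 the lowest in 11. The mean log2 difference of the 38 genes from their Sham mean was 0.91 in MCAO 6, 0.80 in MCAO 3, 0.77 in MCAO 5, 0.64 in MCAO 1, 0.48 in MCAO 7, 0.47 in MCAO 2 and 0.42 in MCAO 4, against -0.07 to 0.04 in Sham. The heat map of single rats shows exceptions to this order. MCAO 2, low for Tagln, Capg and Pfn1, was the highest MCAO rat for Actn1, Vcl, Actg1 and Actr2. MCAO 4 had Tagln at 9.48, the MCAO median, but Actn1, Actg1 and Tpm1 in or below the Sham range.

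**Figure D4:**
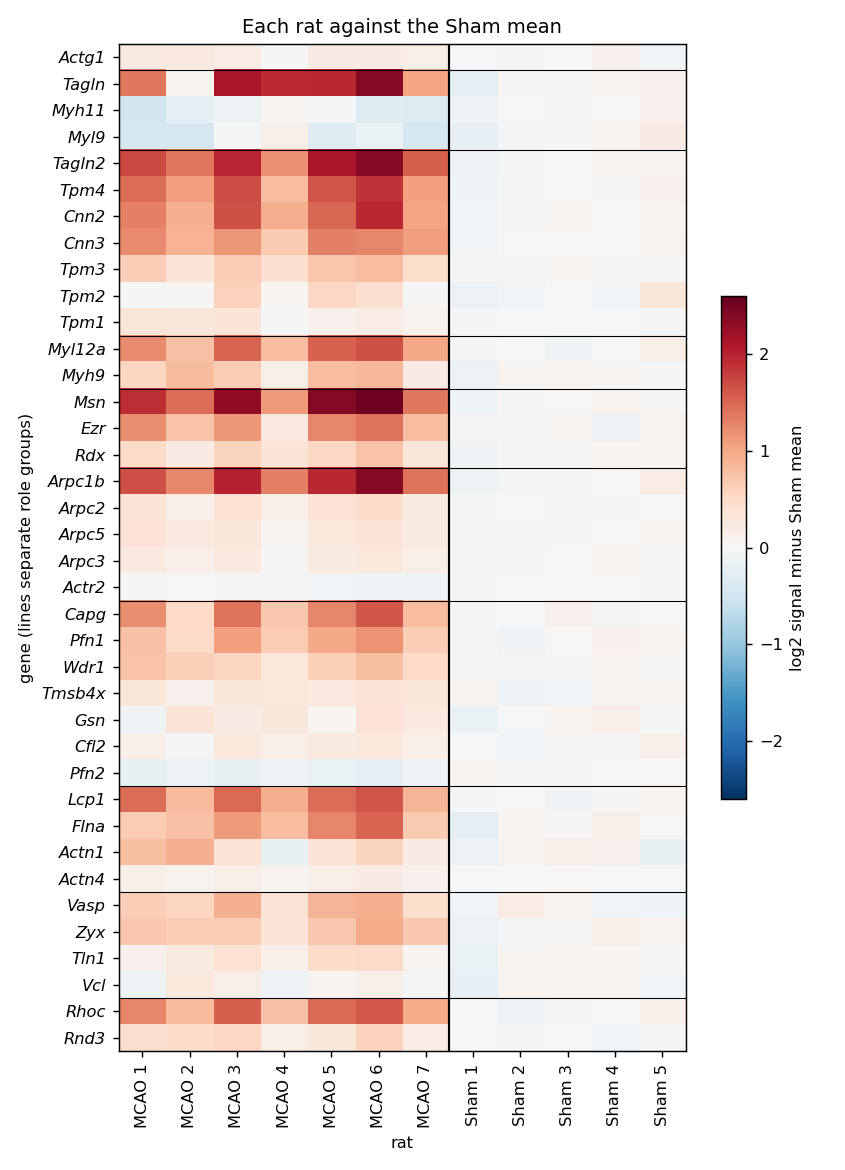
Log2 signal of each rat minus the Sham mean (colour scale), for the 38 varying actin genes (rows, lines separate role groups) in 7 MCAO (left of the vertical line) and 5 Sham rats (right). MCAO 6 has the deepest colour in most rows, and MCAO 4 and MCAO 2 the palest, except for Tagln in MCAO 4 and Actn1 in MCAO 2.

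Most varying myeloid markers were also higher in MCAO. Of 10 varying myeloid markers 9 were higher and 1 did not pass, and Csf1r and Laptm5 were near-constant. Of all varying genes 35.2% were called higher and 34.2% lower, and the marker counts here are read beside these shares. The adaptor gene Tyrobp changed by 1.61 ± 0.17 (SE; limma adjusted p = 0.000375) and the lipopolysaccharide co-receptor gene Cd14 by 3.13 ± 0.29 (adjusted p = 0.000219). Cd14 passed the filter through the MCAO rats alone, since its Sham values (6.43 to 6.51) lay below the line of 6.61. It thus had to be higher in MCAO to be counted among the 9, and the size of its change is uncertain. The list mean ran from 0.74 to 1.47 in MCAO and from -0.08 to 0.14 in Sham, with MCAO 6 highest and MCAO 2 lowest. MCAO 4, the lowest MCAO rat for the mean of the actin genes, had 1.02. Endothelial markers were higher in 3 of 6 varying genes, with list means from -0.07 to 0.48 in MCAO and -0.12 to 0.08 in Sham, and Kdr (0.53 ± 0.19) and Pecam1 (0.41 ± 0.11) changed most. Astrocyte markers split: Gfap, the main astrocyte filament, changed by 1.91 ± 0.12, Aldh1l1, a folate enzyme, by -0.78 ± 0.13, and in all 1 was higher and 3 lower of 5. Of 8 neuron markers 4 were lower, led by Rbfox3 (-0.51 ± 0.13), while Slc17a7 (-0.28 ± 0.15) did not pass, and 1 of 4 oligodendrocyte markers was lower (Cnp, -0.26 ± 0.09), while Mog (-0.16 ± 0.09) did not pass. The lowest group mean was 9.14 among neuron, 7.72 among astrocyte and 9.81 among oligodendrocyte markers, all above the filter line. Among myeloid markers it was 6.40, in Sham and below the line. That value belonged to a gene other than Cd14, so the size of that gene's change is uncertain too. Its place among the 9 may likewise depend on its MCAO values. Signals of different probes cannot be set against each other, and 1 skeletal muscle marker reached 11.52 in MCAO and 11.53 in Sham, so a high signal alone does not show a cell type. The part of any of these cell types in the actin results was not tested.

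Genes of actin control outside the 48 were read in further lists, which did not share a direction. Their counts are read beside the 35.2% of all varying genes called higher and the 34.2% called lower. Focal adhesion partners were higher in 6 of 11 varying genes, led by Fermt3, the kindlin of blood cells (1.26 ± 0.13), and Lims1, a partner of integrin-linked kinase (0.80 ± 0.15). Fermt3 also passed the filter through the MCAO rats alone, with Sham values of 6.21 to 6.45, so it had to differ to be counted among the 6.

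Nucleation promoting factors and formins were lower in 7 of 12 varying genes and higher in 2. Fmnl1, a formin, changed by -0.69 ± 0.20 (SE) and Cobl, a nucleator of neurons, by -0.66 ± 0.10. Neuronal and spine actin genes were lower in 11 of 15 varying genes and higher in 1, with a median log2 change of -0.39. Cttnbp2, which holds the nucleation factor cortactin at spines, had a lowest, median and highest log2 signal of 8.57, 8.77 and 9.20 in MCAO, against 9.11 to 9.65 in Sham, with MCAO 2 in the Sham range (-0.64 ± 0.12; limma adjusted p = 0.00327), and Cap2, a relative of Cap1, changed by -0.48 ± 0.11. The 1 that was higher, Myo5a, a motor of vesicle transport (0.44), was picked after its value was seen. In 9 of the 15 varying genes of this list the gene was called and every MCAO rat lay below every Sham rat, as in 16.2% of all varying genes.

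Serum response factor, its cofactors and its targets outside the 48 genes were called in 2 of 7 varying genes, 1 higher and 1 lower. Of all varying genes 35.2% were called higher and 34.2% lower. Ccn1, a matricellular growth response gene, had 6.69 in MCAO 4, 7.39 in MCAO 7 and between 7.97 and 9.10 in the other 5 MCAO rats, against 6.58 to 6.89 in Sham. MCAO 4 lay within the Sham range, and MCAO 2 was highest, as for Actn1. The change was 1.48 ± 0.41 (SE; limma adjusted p = 0.0151). Fhl1, a LIM protein of muscle, changed by -0.18 ± 0.06 (adjusted p = 0.0411), and Srf itself (0.12), picked after its value was seen, did not pass.

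The beta-actin control probe sets give a sign of RNA integrity from the transcript of Actb itself. Their 3' minus 5' log2 signal averaged 1.36 ± 0.07 in the 7 MCAO rats and 1.43 ± 0.03 in the 5 Sham rats (SD). The difference of -0.06 did not pass when every split of the rats was enumerated (exact permutation test, two-sided, p = 0.077, and p = 0.0152 without MCAO 4, with a difference of -0.08). Its part in the results above was not tested.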

How the data were processed

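Messenger RNA of 7 MCAO and 5 Sham rats, 1 array each, was analysed from the table of 31099 probe sets deposited by the authors. Per the labels' protocols, RNA was extracted with TRIzol, cleaned on RNeasy columns and labelled as biotin-cRNA. The deposited values were taken as log2 signals from their range (4.9976 to 14.006); no log base, normalization or software was found in the labels or file. Probe sets were named from the array platform's annotation: 20826 had 1 gene, and 436 with several genes named none. Control values of MCAO 6 were out of register with the other arrays and were realigned by 12 positions for the beta-actin controls.

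Kept were probe sets that exceeded the 25th percentile, 6.611, on 5 arrays or more, and the brightest stood for its gene. limma 3.58.1 in R 4.3.3 (two-sided moderated test, eBayes variance trend on intensity) compared MCAO with Sham over 12156 genes, and separately over 17244 probe sets, with Benjamini-Hochberg adjustment and a threshold of 0.05. Probe sets with an SD under 0.01 were counted apart. Scripts were tested on simulated data. Alternatives covered normalization, filter, choice of probe set, array weights, a rank-sum test, a replicate block and leaving out rats. The replicate block also left out MCAO 6 and MCAO 7, which have no Sham rat of the same number. Entrez numbers of 41 of the 42 tested genes matched the RefSeq table.

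The genes and lists were chosen with earlier results of these data known. Full values are given for the 3 tested genes with the largest change in each role group and for called genes that went against the majority, with the 2 called genes of largest change in each pathway list and the 2 genes of largest change in each marker list. Whether each array came from a separate animal rests on the sample titles, and p-values measure only the spread between these samples. The counts of 1 pathway list are not reported here.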

Additional observations from a re-analysis of the deposited data

Results flagged for a closer look

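Among 130 groups of rats, from 65 varying probe sets in MCAO and Sham, 8 held a rat that stood apart from the rest of its group by Dixon's test, where chance alone gives about 1 in 20. MCAO 4 stood below the other MCAO rats for both Actg1 probe sets, at 12.93 (the others lay between 13.13 and 13.20) and at 7.81 (8.08 to 8.29). MCAO 2 stood below them for Cfl2, at 10.27 (10.46 to 10.60), and for Tmsb4x, at 12.99 (13.14 to 13.24), and above them for the Tpm1 probe set that did not pass the test, at 8.68 (7.04 to 7.42). MCAO 6 stood above them for 1 of the 3 Rnd3 probe sets, at 8.41 (7.98 to 8.17). Sham 1 was low for Tagln, at 7.30 (7.56 to 7.65), and Sham 3 was high for Capg, at 7.10 (6.94 to 6.98).

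The 8 probe sets that listed genes share with other genes lay outside the tests, and 5 of them had every MCAO rat above every Sham rat (18.2% of all varying single-gene probe sets were called and separated in this way). Of the other 3, Tmsb10 differed by 0.50 with MCAO 2 inside the Sham range, and 2 of Actr3 were near-constant. The 2 that the annotation shares between beta-actin and gamma-actin genes differed by 0.28 and 0.29 on the log2 scale. The shared probe set of Myl6, a myosin light chain, differed by 0.37, that of Cfl1, the main cofilin, by 0.35, and 1 of Actr3, the Arp3 gene, by 0.29. The beta-actin control probe sets, also outside the tests, were higher in MCAO by 0.39 at the 3' end, 0.46 in the middle and 0.45 at the 5' end, again with no overlap (exact permutation p = 0.00126 each, the smallest that the splits of these rats allow).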

How the results depend on the processing

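The count of actin genes called higher (31) stayed between 25 and 34 under 26 alternatives, and between 27 and 32 when 1 rat was left out. Of the 30 varying genes called higher, 24 kept the call under all 26; Actg1, Arpc3, Cfl2, Tln1, Tpm1 and Tpm3 did not. Tpm3 lost it only with the probe set of largest variance (adjusted p = 0.0622). Of the 6 varying genes that did not pass, 1 (Vcl) kept that result throughout, and 5 gained a call under some alternatives. Myh11 and Actn1 gained it under 5, Myl9 under 3, Gsn under 2 and Tpm2 under 1. The count of genes called lower (2) was 4 with quantile normalization, with array weights and without both MCAO 2 and MCAO 4 (an alternative chosen after seeing the data), 1 with the mean of probe sets, 0 with the probe set of largest variance, and 1 to 4 when 1 rat was left out. For probe sets the count called lower (2) was 5 under the first 3 of these and 1 to 4 when 1 rat was left out. The log2 change of Actr2 turned to 0.052 with the probe set of largest variance (adjusted p = 0.349). The beta-actin 3' minus 5' difference ran from -0.0827 to -0.0484 when 1 rat was left out.

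With the replicate number as a block, 1548 of all genes were called higher and 1535 lower (2698 and 2688 without it), 2197 and 1786 of all probe sets, and 25 of the actin genes higher. This fit used only rats whose numbers occur in both groups, so MCAO 6 and MCAO 7 were left out. The effects of the block and of losing these rats cannot be told apart in its counts. Same-numbered rats correlated at 0.32, 0.54, -0.33, -0.05 and 0.16 over 6339 genes, and 3 of the 5 MCAO rats (MCAO 1, MCAO 2 and MCAO 5) matched the Sham rat of their own number best. As 2 pairs correlated below 0, the rats were treated as unpaired, and whether some share a batch was not tested. The causes of these shifts were not tested. Dim probe sets near the filter and near-constant values limit what the arrays can show.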
